A study of Drosophila melanogaster with 6 samples.

Results

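The Tip60 acetyltransferase subunits described here are 8 genes, Tip60, E(Pc), Eaf6, Ing3, MRG15, MrgBP, Brd8 and Hcf, of 17490 genes counted in brains of Drosophila melanogaster larvae at the 3rd instar. They were selected by symbol, matched to the gene identifiers of the deposited table, and all 8 had a row. In these animals RNAi against DMAP1, a subunit of the same complex, was driven by elav-Gal4, which is active in neurons. The labels give all 6 libraries that single genotype. The libraries were made from polyadenylated RNA of whole brains, which also hold cells other than neurons. The column names divide them into a DMAP1RNAi63666 and a DMAP1RNAi103734 series of 3 libraries each. The labels explain neither stem and give no sex, age within the instar or number of pooled animals. Whether the series differ in RNAi line or genetic background is not stated. Columns that match no labelled sample were not analysed here, so each value is a level under RNAi or a difference between the series, and no effect of the knockdown is given. No source says that libraries came from separate animals, so each p-value rests on a spread among libraries that may be technical.

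Tip60 is a histone acetyltransferase of the MYST family that acetylates histones H4 and H2A. In flies it works in a large complex together with the ATPase Domino, which exchanges the histone variant His2Av, and the complex acts in transcription, in DNA repair and in neurons. In yeast and human counterparts, the enzyme sits in a small catalytic core with the proteins related to E(Pc), Eaf6 and Ing3, while relatives of MRG15, MrgBP and Brd8 form a separate submodule that reads chromatin marks. Hcf, host cell factor, is a scaffold shared with histone methyltransferase complexes.

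Total counts were between 31518485 and 37236953 per library, and genes of the mitochondrial genome took 8.18 to 10.9% of the counts in the DMAP1RNAi63666 series and 6.88 to 7.10% in the DMAP1RNAi103734 series. Neuron markers (elav, nSyb, brp, Syt1 and Syx1A) summed to 1210 to 1550 TPM (counts scaled by gene length and by library) in the DMAP1RNAi63666 series and to 992 to 1300 TPM in the DMAP1RNAi103734 series, and none of the neuron, glia or neuroblast markers was at 0 in all libraries. Library 1 of the DMAP1RNAi63666 series stood apart. It had the lowest total (31518485), the fewest genes with a count (12855) and the highest mitochondrial share (10.9%) of the 6 libraries. It held the lowest value of 32.9% and the highest value of 29.5% of the 10211 genes tested, after TMM scaling of the libraries. In it the sums of the neuron, glia and neuroblast markers, 5 each, were highest, at 1550, 3950 and 350 TPM. In the DMAP1RNAi103734 series they were 992 to 1300, 3030 to 3300 and 340 to 348 TPM. Most of the glia sum was Gs2 and Gat, at means of 2227 and 836.8 TPM. Gat averaged 1004 TPM in the DMAP1RNAi63666 and 670.1 TPM in the DMAP1RNAi103734 series, and Gs2 2256 and 2199 TPM. The means of moody and wrapper were also higher in the DMAP1RNAi63666 series, but that of repo was lower (49.25 against 56.57 TPM). The neuroblast markers differed in direction. In every DMAP1RNAi63666 library dpn, mira and insc were lower than in the DMAP1RNAi103734 series (at most 37.5, 92.3 and 19.8 TPM, against at least 38.05, 103 and 20.65 TPM). By contrast ase was higher (at least 127.1 TPM, against at most 123.4 TPM), and wor overlapped. In counts scaled by library total only, 20.3% of all 10211 genes tested had every DMAP1RNAi63666 library below the other series. For 12.3% every such library was above it. No test set the markers against these shares. The sums of the matched muscle, ring gland, and cuticle and trachea markers were lowest in library 1 of the DMAP1RNAi63666 series, at 126, 10.8 and 11.6 TPM. In the DMAP1RNAi103734 series they were 199 to 337, 17.3 to 42.1 and 13.5 to 33.8 TPM. The fat body and hemocyte sums were not lowest in library 1 of the DMAP1RNAi63666 series. At 136 and 49.4 TPM they lay within the ranges of the DMAP1RNAi103734 series (38.2 to 466 and 21.1 to 67.9 TPM). In whole-brain RNA, fewer cells of a type and less RNA per cell cannot be told apart.

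The 8 genes lie on 5 chromosome arms and have very different structures. On the BDGP6 assembly, as in the deposited table, Tip60 (FBgn0026080) spans bases 4114800 to 4117487 of chromosome X on the minus strand, with 2413 exonic bases in 5 exon blocks. Ing3 (FBgn0030945) lies on the same chromosome at 18650718 to 18653091, minus strand, with 2298 exonic bases in 2 blocks. E(Pc) (FBgn0000581, 2R, 11452043 to 11465270, plus strand) is the longest, with 10946 exonic bases in 12 blocks. MrgBP (FBgn0033341, 2R, 8900566 to 8901375, minus strand) is the shortest, with 758 bases in 2 blocks. Eaf6 (FBgn0035624, 3L, 5607162 to 5608300, minus strand) has 864 bases in 4 blocks. MRG15 (FBgn0027378, 3R, 15276440 to 15278109, minus strand) has 1511 bases in 4 blocks. Brd8 (FBgn0039654, 3R, 29223485 to 29226276, plus strand) has 2792 bases and is the only one of the 8 with a single exon block. Hcf (FBgn0039904, 359938 to 375554, plus strand) lies on the small chromosome 4 and has 8196 bases in 13 blocks. Tip60 shares 468 exonic bases, or 19.4% of its length, with tyf on the opposite strand, which strand-specific counting keeps apart. MRG15 shares 8.54% of its length with l(3)neo43 on its own strand, where read pairs that fit both genes were not counted.

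All 8 genes were expressed in every library, with counts from 44 (Ing3) to 15608 (Hcf), and all 8 passed the filter on low counts. By mean TPM over the 6 libraries the order was Hcf, E(Pc), MRG15, Eaf6, Brd8, MrgBP, Tip60 and Ing3. The highest was 25.8 times the lowest. The catalytic subunit Tip60 was therefore next to last in this order. Among the 10211 genes tested, Hcf lay at percentile 86.3, E(Pc) at 79.4 and MRG15 at 63.5 of mean TPM. Eaf6, Brd8 and MrgBP lay near the middle (percentiles 51.5, 49.7 and 48.5), Tip60 at 44.3 and Ing3 at 18.5. DMAP1, the RNAi target, lay at 31.9.

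**Figure D1:**
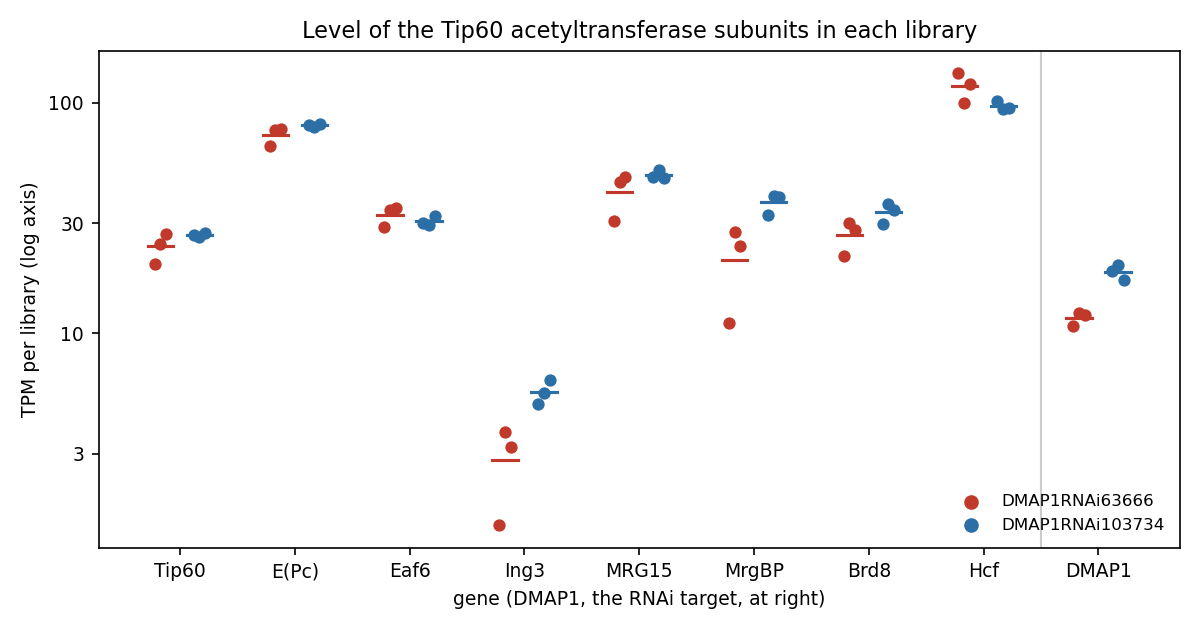
Level of each Tip60 acetyltransferase subunit and of DMAP1 in TPM on a log axis, 1 point per library, DMAP1RNAi63666 in red and DMAP1RNAi103734 in blue, with the series mean as a bar. Hcf was the highest and Ing3 the lowest subunit in all 6 libraries, and the lowest red point of Ing3, MrgBP and MRG15 is library 1 of the DMAP1RNAi63666 series.

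Within the catalytic core, Tip60, the enzyme itself, stood at 20.0, 24.4 and 26.9 TPM in libraries 1 to 3 of the DMAP1RNAi63666 series, against 26.8, 26.1 and 27.3 TPM in the DMAP1RNAi103734 series. The series overlapped, and library 1 of the DMAP1RNAi63666 series was the lowest. Means were 23.8 ± 3.48 TPM in the DMAP1RNAi63666 series and 26.7 ± 0.588 TPM in the DMAP1RNAi103734 series (SD, n = 3 each). The log2 fold change of the DMAP1RNAi63666 over the DMAP1RNAi103734 series was -0.13 (SE 0.10, 95% interval -0.36 to 0.10, edgeR adjusted p = 0.446).

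E(Pc), Enhancer of Polycomb, whose yeast relative holds the catalytic core together, had 65.2, 76.3 and 77.0 TPM in the DMAP1RNAi63666 series, against 80.1, 78.6 and 81.0 TPM in the DMAP1RNAi103734 series. All 3 DMAP1RNAi63666 libraries lay below the other series, by a small amount. Its log2 fold change was -0.09 (SE 0.09, 95% interval -0.30 to 0.11, edgeR adjusted p = 0.528), and the interval includes 0.

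Eaf6, a small subunit that in yeast is also found in a second acetyltransferase complex, had 28.9, 34.2 and 35.0 TPM in the DMAP1RNAi63666 series, against 30.1, 29.6 and 32.2 TPM in the DMAP1RNAi103734 series. The series overlapped, and Eaf6 was the only core subunit with a positive log2 fold change, 0.13 (SE 0.11, 95% interval -0.11 to 0.38, edgeR adjusted p = 0.456).

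Ing3, a PHD finger protein of the ING family that binds methylated histone H3 tails, was the least abundant of the 8. It had 1.46, 3.73 and 3.20 TPM in the DMAP1RNAi63666 series, against 4.92, 5.48 and 6.25 TPM in the DMAP1RNAi103734 series. The series did not overlap. The counts behind these values were 44, 129 and 116 in the DMAP1RNAi63666 series and 166, 192 and 211 in the DMAP1RNAi103734 series. The exact 95% Clopper-Pearson interval for library 1 of the DMAP1RNAi63666 series was 1.01 to 1.87 CPM (counts scaled by library total only), below that of library 3, the next lowest (2.57 to 3.74 CPM), for counting error only. Its log2 fold change, -0.95 (SE 0.31, 95% interval -1.66 to -0.24), had the largest size among the 8, but it did not pass the threshold in edgeR (adjusted p = 0.137). DESeq2 gave an adjusted p of 0.0363 for the same libraries.

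In the chromatin-reading submodule, MRG15, a chromodomain protein that binds methylated histone H3 in transcribed genes, had 30.8, 45.2 and 47.5 TPM in the DMAP1RNAi63666 series, against 47.5, 51.2 and 47.1 TPM in the DMAP1RNAi103734 series. The series overlapped, and library 1 of the DMAP1RNAi63666 series was the only one under 45 TPM. The log2 fold change was -0.20 (SE 0.14, 95% interval -0.53 to 0.12, edgeR adjusted p = 0.389), and -0.06 without that library.

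MrgBP, the protein that binds MRG15 in this submodule, had 11.1, 27.6 and 23.9 TPM in the DMAP1RNAi63666 series, against 32.7, 39.3 and 39.1 TPM in the DMAP1RNAi103734 series. The series did not overlap. Means were 20.9 ± 8.67 TPM in the DMAP1RNAi63666 series and 37.0 ± 3.79 TPM in the DMAP1RNAi103734 series (SD, n = 3 each). The log2 fold change of -0.79 (SE 0.28, 95% interval -1.43 to -0.15) did not pass in edgeR (adjusted p = 0.153). It was -0.52 (SE 0.145, edgeR adjusted p = 0.155) without library 1 of the DMAP1RNAi63666 series.

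Brd8, a bromodomain protein, the kind of protein that binds acetylated lysine, had 21.6, 30.2 and 28.2 TPM in the DMAP1RNAi63666 series, against 29.8, 36.4 and 34.1 TPM in the DMAP1RNAi103734 series. The series overlapped in a narrow range. The log2 fold change was -0.29 (SE 0.13, 95% interval -0.59 to 0.01, edgeR adjusted p = 0.215).

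Hcf ran the other way. It had 134.4, 100.3 and 120.9 TPM in the DMAP1RNAi63666 series, against 101.8, 93.8 and 94.7 TPM in the DMAP1RNAi103734 series. The CPM values of the series did not overlap, whereas the TPM values overlapped in 1 library of each. The log2 fold change of 0.34 (SE 0.13, 95% interval 0.04 to 0.64) did not pass in edgeR (adjusted p = 0.167).

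Across the 8 genes, 0 passed an adjusted p of 0.05 in edgeR, where 1.55% of all 10211 genes did (0.872% higher and 0.676% lower in the DMAP1RNAi63666 series), and 1 (Ing3) passed in DESeq2, where 9.39% of all genes did. At an unadjusted edgeR p under 0.05 there were 3 (Ing3, MrgBP and Hcf), against 24.6% of all genes. By sign, 6 were negative and 2 positive. Their median log2 fold change was -0.17, against 0.000607 over all genes tested, with a range from -0.95 to 0.34. In CPM, 3 (E(Pc), Ing3 and MrgBP) had all DMAP1RNAi63666 libraries below all DMAP1RNAi103734 libraries, as did 20.3% of all genes. Hcf was the only member with the reverse, as were 12.3% of all genes. No test set these counts against the shares over all genes.

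**Figure D2:**
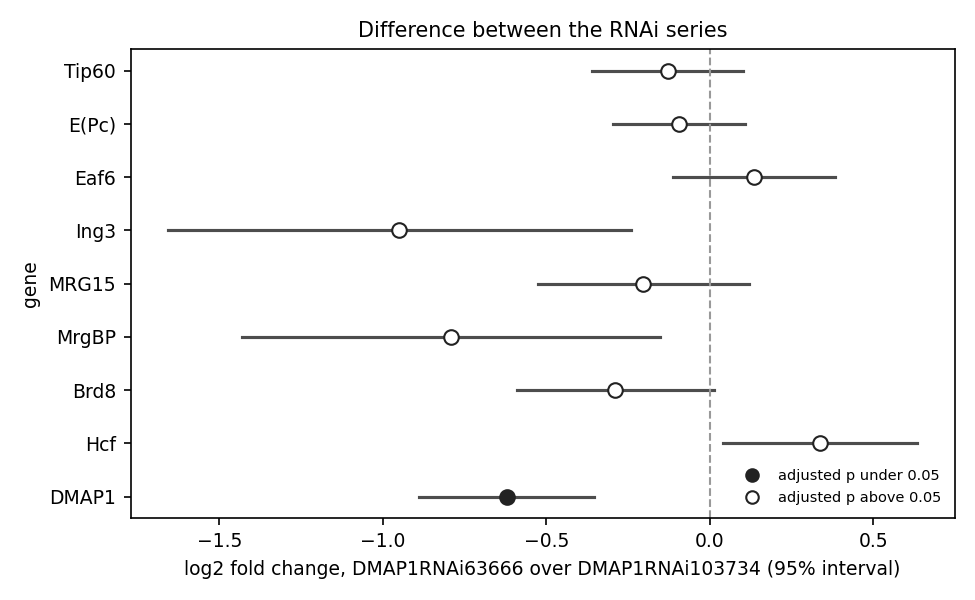
Log2 fold change of the DMAP1RNAi63666 over the DMAP1RNAi103734 series for the 8 subunits and DMAP1, with 95% intervals from edgeR on 3 libraries each. The filled point, DMAP1, had an adjusted p of 0.0453, and the 8 open points had adjusted p-values of 0.137 to 0.528.

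DMAP1, the RNAi target, was the only gene among the subunits and the Domino list that passed. It had 10.77, 12.21 and 11.94 TPM in the DMAP1RNAi63666 series, against 18.64, 19.67 and 16.96 TPM in the DMAP1RNAi103734 series. The log2 fold change was -0.62 (SE 0.12, edgeR adjusted p = 0.0453), with log2 fold changes from -0.68 to -0.56 and adjusted p-values from 0.00109 to 0.168 over 12 alternatives. The call was lost under 6 of them, namely without library 1, 2 or 3 of the DMAP1RNAi103734 series (adjusted p = 0.168, 0.156 and 0.132 in edgeR), without library 1 or 3 of the DMAP1RNAi63666 series (0.0774 and 0.119 in edgeR) and with a replicate block (0.0507 in edgeR). Its interval (-0.89 to -0.35) overlapped those of Tip60, Ing3, MRG15, MrgBP and Brd8 and lay wholly below those of E(Pc), Eaf6 and Hcf.

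The members' spread over the libraries was largely that of library 1 of the DMAP1RNAi63666 series. After TMM scaling, 6 of the 8 (Tip60, E(Pc), Ing3, MRG15, MrgBP and Brd8) had their lowest log2 CPM in that library, as did 32.9% of all genes tested. Hcf had its highest there, as did 29.5% of all genes tested. Ing3 deviated there by -1.26 and MrgBP by -1.18 from the mean of 6 libraries, Hcf by 0.41, MRG15 by -0.44, Brd8 by -0.38, Tip60 by -0.25 and E(Pc) by -0.14. Eaf6, at -0.05, was the exception and was lowest in library 1 of the DMAP1RNAi103734 series (-0.11). Over all genes tested, the deviations in this library had an SD of 0.446, and only those of Ing3 and MrgBP among the 8 were larger than that. The median deviation there lay between -0.07 and 0.11 in classes of genes by number of exon blocks. In 5 classes by gene length it lay between -0.11 and 0.08. These class medians do not give the spread of single genes. The part of that library's marker and mitochondrial levels in the members' values was not tested. Without it, the log2 fold changes were -0.05 for Tip60, -0.05 for E(Pc), 0.18 for Eaf6, -0.67 for Ing3, -0.06 for MRG15, -0.52 for MrgBP, -0.19 for Brd8 and 0.20 for Hcf, so that all 8 kept their sign.

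**Figure D3:**
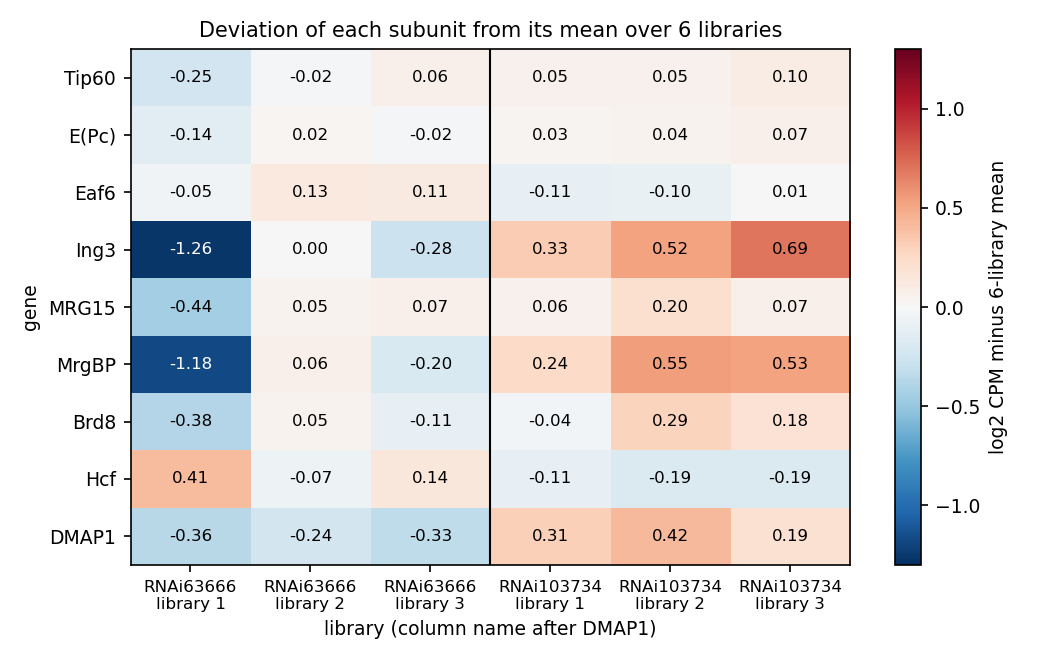
Deviation of each gene from its mean over the 6 libraries in TMM-scaled log2 CPM, with the 3 DMAP1RNAi63666 libraries at left and the 3 DMAP1RNAi103734 libraries at right. Ing3 and MrgBP have the deepest blue cells, -1.26 and -1.18 in library 1 of the DMAP1RNAi63666 series, where Hcf is at 0.41.

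In TPM, the order of levels among the 8 was the same at its ends in all libraries and varied in the middle. Hcf, E(Pc) and MRG15 held places 1, 2 and 3 and Ing3 place 8 in all 6 libraries. Of the 28 pairs of members, 24 had the same order in every library. MrgBP held place 4 in each DMAP1RNAi103734 library, but places 7, 6 and 7 in libraries 1 to 3 of the DMAP1RNAi63666 series. Eaf6 held place 4 in each DMAP1RNAi63666 library and place 5 or 6 in the DMAP1RNAi103734 series.

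Neighbours in the order were compared within libraries. Hcf exceeded E(Pc) by 0.49 ± 0.31 in log2 TPM (SD, n = 6), E(Pc) exceeded MRG15 by 0.78 ± 0.16, MRG15 exceeded Eaf6 by 0.49 ± 0.24 and Tip60 exceeded Ing3 by 2.73 ± 0.61, each in 6 of 6 libraries. The exact two-sided sign-flip permutation test gave p = 0.03125 for each, the smallest possible with 6 libraries. The exact adjusted p over 7 neighbouring pairs was 0.0547 for each, so none passed. With that smallest p, the adjusted p depends on how many pairs reach it, so it cannot decide on any pair by itself. The pairs and their direction were set by mean TPM in these same libraries, so the test is no independent support for the order. Eaf6 minus Brd8 (0.09 ± 0.27, exact adjusted p = 0.569), Brd8 minus MrgBP (0.15 ± 0.43, exact adjusted p = 0.688) and MrgBP minus Tip60 (0.09 ± 0.54, exact adjusted p = 0.688) were smaller than their own SD over the 6 libraries. That spread spans both series, and the mean differences within series were opposite in sign. Eaf6 minus Brd8 averaged 0.30 in the DMAP1RNAi63666 series and -0.12 in the DMAP1RNAi103734 series, Brd8 minus MrgBP 0.44 in the DMAP1RNAi63666 series and -0.15 in the DMAP1RNAi103734 series, and MrgBP minus Tip60 -0.28 in the DMAP1RNAi63666 series and 0.47 in the DMAP1RNAi103734 series. Over both series together, the levels of Eaf6, Brd8, MrgBP and Tip60 did not differ between neighbours beyond the spread. This does not make the levels equal. Pairs that were not neighbours had no test, and Eaf6 and Brd8 each ranked above Tip60 in all 6 libraries.

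Ratios between subunits, for pairs chosen after their values were seen and given with no test, differed in how steady they were. Tip60 minus E(Pc) was -1.70, -1.64 and -1.52 in log2 TPM in the DMAP1RNAi63666 series, against -1.58, -1.59 and -1.57 in the DMAP1RNAi103734 series. The SD of this difference was 0.06 over the 6 libraries. Each of the genes also varied little by itself, with an SD in TPM of 10.9% of the mean for Tip60 and 7.52% for E(Pc). For MrgBP and Ing3 it was 36.9% and 41.5%. The share of all gene pairs with so small an SD was not computed.

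In the other ratios the values are likewise a description of pairs picked for them, and the share of all gene pairs whose series do not overlap was not computed. MrgBP minus MRG15, the ratio of the binding partners, was -1.47, -0.71 and -0.99 in the DMAP1RNAi63666 series, against -0.54, -0.38 and -0.27 in the DMAP1RNAi103734 series. Ing3 minus Tip60 was -3.77, -2.71 and -3.07 in the DMAP1RNAi63666 series, against -2.45, -2.25 and -2.13 in the DMAP1RNAi103734 series. The series did not overlap in either ratio.

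Eaf6 minus Tip60 was 0.53, 0.48 and 0.38 in the DMAP1RNAi63666 series, against 0.17, 0.18 and 0.24 in the DMAP1RNAi103734 series. Hcf minus Tip60 was 2.75, 2.04 and 2.17 in the DMAP1RNAi63666 series, against 1.92, 1.85 and 1.80 in the DMAP1RNAi103734 series. In both ratios every DMAP1RNAi63666 library lay above the other series. Tip60 minus DMAP1 was 0.896, 1.001 and 1.172 in the DMAP1RNAi63666 series, against 0.525, 0.408 and 0.684 in the DMAP1RNAi103734 series, which likewise did not overlap. Tip60 minus dom, the acetyltransferase against the ATPase, was -2.98, -2.62 and -2.79 in the DMAP1RNAi63666 series, against -2.58, -2.74 and -2.51 in the DMAP1RNAi103734 series, which overlapped.

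**Figure D4:**
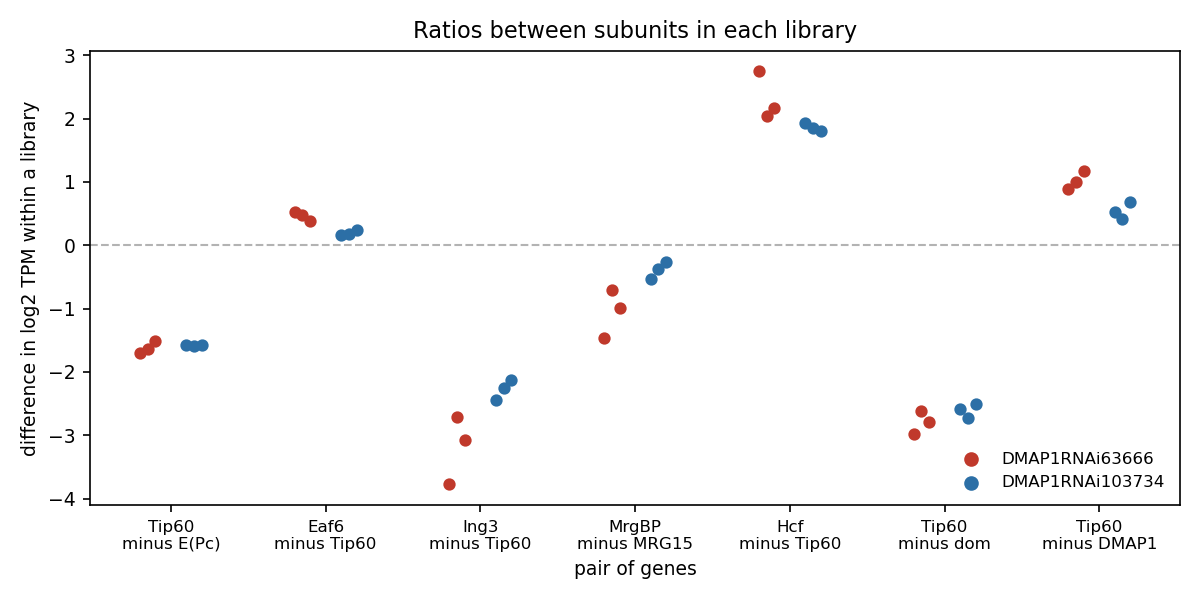
Difference in log2 TPM between pairs of subunits within each library, 1 point per library, DMAP1RNAi63666 in red and DMAP1RNAi103734 in blue. Tip60 minus E(Pc) stays between -1.70 and -1.52, while the red points of MrgBP minus MRG15 and of Ing3 minus Tip60 lie below all blue points.

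The median level of the 8 subunits lay below that of the Domino and shared subunits of the complex, a list that includes DMAP1. As a description with no test, their median log2 TPM minus that of 10 such genes was -1.71, -1.40 and -1.58 in the DMAP1RNAi63666 series, against -1.44, -1.34 and -1.21 in the DMAP1RNAi103734 series. It was negative in 6 of 6 libraries, with a mean of -1.45 ± 0.18 (SD, n = 6). The lists overlapped gene by gene. Hcf, at a mean of 107.6 TPM, exceeded rept (91.5 TPM), Gas41 (76.6 TPM), Arp6 (74.1 TPM), YL-1 (43.15 TPM), DMAP1 (15.03 TPM) and Act87E (12.5 TPM). In the Domino list, 1 of 10 genes (DMAP1) passed in edgeR as lower in the DMAP1RNAi63666 series and 0 as higher. Of all genes tested, 0.676% were lower and 0.872% higher. The median log2 fold change of the list was -0.02. Nipped-A, the large scaffold protein, averaged 217 ± 38.6 TPM in the DMAP1RNAi63666 series and 161 ± 5.10 TPM in the DMAP1RNAi103734 series (SD, n = 3 each). Its log2 fold change, 0.48 (SE 0.15, edgeR adjusted p = 0.135), was of the sign of Hcf. Bap55, an actin-related subunit, had one of -0.02 (SE 0.10, edgeR adjusted p = 0.927).

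Related chromatin genes had no member past the threshold in edgeR, which 1.55% of all genes tested passed. At that share, a count of 0 in lists this short says little about them. Of the other histone acetyltransferases 0 of 7 tested passed, with a median log2 fold change of 0.07. Hat1, the most abundant of them, averaged 191 ± 6.27 TPM in the DMAP1RNAi63666 series and 169 ± 2.52 TPM in the DMAP1RNAi103734 series (SD, n = 3 each), a log2 fold change of 0.22 (SE 0.07, edgeR adjusted p = 0.142). Gcn5, the acetyltransferase of SAGA-type complexes, had 0.07 (SE 0.13, edgeR adjusted p = 0.748).

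Of the histone deacetylases 0 of 9 tested passed, with a median of 0.07. HDAC1 stood at -0.11 (SE 0.09, edgeR adjusted p = 0.472) and Sirt1 at 0.07 (SE 0.09, edgeR adjusted p = 0.665). HDAC3 is listed at 0 in all 6 libraries and was not tested. Its exons are covered in full by CG45100 on the same strand, so that read pairs there fit both genes and were not counted.

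Partners of the members in other complexes had 0 of 14 past the threshold and a median of -0.003. They include Caf1-55, a histone-binding protein found with several complexes (-0.04, SE 0.12, edgeR adjusted p = 0.86), and Sin3A, the corepressor scaffold (-0.09, SE 0.09, edgeR adjusted p = 0.557). Histone variants and acetyl-lysine readers had 0 of 8 past the threshold and a median of -0.14. His3.3A, a replacement histone named after its values were seen, had the largest difference there (-0.76, SE 0.19, edgeR adjusted p = 0.0963). In that list His3.3B stood at -0.18 (SE 0.12, edgeR adjusted p = 0.374) and His4r at -0.38 (SE 0.16, edgeR adjusted p = 0.186). By list, the lowest adjusted p was 0.142, 0.116, 0.131 and 0.0931 in these 4 lists, against 0.137 among the 8 subunits.

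**Figure D5:**
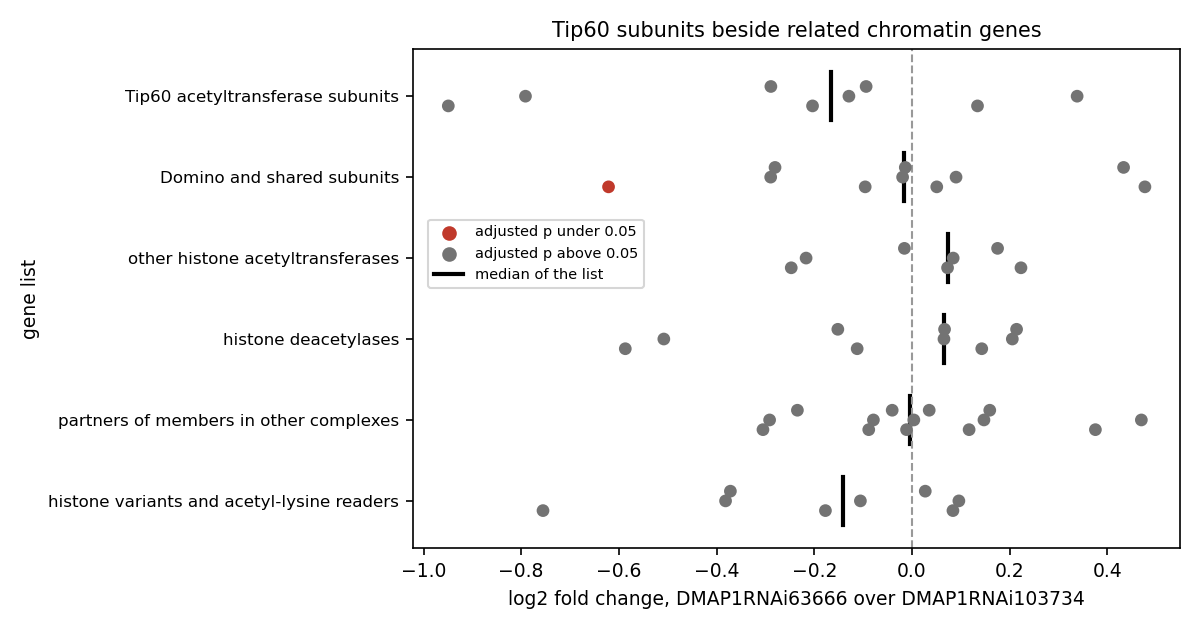
Log2 fold change of the DMAP1RNAi63666 over the DMAP1RNAi103734 series for each tested gene of 6 lists, with the list median as a black bar. The red point is DMAP1 (-0.62), and the 2 leftmost points of the Tip60 acetyltransferase subunits are Ing3 (-0.95) and MrgBP (-0.79).

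The genes whose pattern over the 6 libraries was most like that of Tip60 were Glyp, glycogen phosphorylase, SMC3, a cohesin subunit, and spri. Their Pearson r with Tip60 in TMM-scaled log2 CPM was 0.996, 0.990 and 0.988 over 6 libraries, given as a description with no test, and 1.45% of 10210 genes had an r above 0.95. They share the libraries with Tip60, and all 3 were lowest in library 1 of the DMAP1RNAi63666 series.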

How the data were processed

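The authors deposited raw counts per gene and gene lengths in bases. Per the file headers, featureCounts 1.6.5 counted fragments of HISAT2 alignments against release 84 of the BDGP6 annotation. Its options were reverse-stranded (2), at least 10 overlapping bases, and overlap shares of 0.1 (read) and 0.01 (feature), and none was set to admit reads that map to several places or fit several genes. The table has 3 further columns of per-sample values that match no labelled sample and were not used. Of 17490 rows, 17216 were named from the reference gene table.

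CPM and TPM were computed here. The series were compared with edgeR 4.0.16 (quasi-likelihood, TMM, filterByExpr with a minimum count of 10, which asks for its CPM equivalent in 3 libraries, Benjamini-Hochberg over 10211 genes, adjusted p of 0.05), with DESeq2 1.42.0 as an alternative. Each SE is the fold change over the root of the F statistic. TMM factors were 0.915 to 1.039, lowest in library 1 of the DMAP1RNAi63666 series. Libraries of a series differed by a chi-square per degree of freedom of at least 24.3. The pairs with library 1 of the DMAP1RNAi63666 series had 92.5 and 105.61, and the other pairs 24.34 to 45.57. The named genes are the members, DMAP1, of each list the genes past the threshold and the 2 of highest mean TPM, and the 3 most like Tip60; others were named after their values were seen. Members and lists were chosen with earlier results of these data known. Of 40 marker genes, wupA, phm, nvd and Jhamt could not be matched.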

Additional observations from a re-analysis of the deposited data

Results flagged for a closer look

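In 2 members, library 1 of the DMAP1RNAi63666 series lay below the other 5 libraries by a gap that was large for the range. E(Pc) stood there at 65.23 TPM, a gap to the next library of 0.701 of the whole range over 6 libraries, above Dixon's 95% critical value of 0.625. MRG15 stood there at 30.77 TPM, a gap of 0.704 of the range. Tip60, with a gap of 0.61 in the same library, was just short of that value. Ing3 and MrgBP had gaps of 0.364 and 0.453 there and were not flagged. Yet their log2 CPM deviations in that library, -1.26 and -1.18, were the largest, against -0.14 for E(Pc). The range spans both series, which did not overlap for Ing3 and MrgBP, so this rule does not rank the members by their drop. Chance flags about 1 in 20 such groups, and 10 values from the same 6 libraries were examined.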

How the results depend on the processing

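Between the series, 158 genes passed in edgeR (89 higher and 69 lower in DMAP1RNAi63666). DESeq2 called 959 (482 higher and 477 lower), including 1 of the 8 members, Ing3. Without any 1 library the count ranged from 69 to 457 (32 to 216 higher, 37 to 241 lower), with 0 members called each time. Leaving out library 1, 2 or 3 of the DMAP1RNAi103734 series gave 75, 83 or 69 genes, and leaving out DMAP1RNAi63666 library 2 gave 457. With the number in the column name as a replicate block it was 278 (107 higher and 171 lower), with 0 members called. Same-numbered libraries correlated at 0.243, -0.212 and -0.26 in their deviations from the series mean, and libraries of unlike number at -0.275 to 0.41. Deviations from a mean of 3 libraries depend on each other, so these values cannot settle whether the numbers pair the libraries. In CPM, without gene length, 6 of 7 neighbouring pairs passed, against 0 in TPM. The exception was Hcf minus E(Pc), at 0.068 against 0.486 in TPM (exact adjusted p = 0.75), with E(Pc) above Hcf in each DMAP1RNAi103734 library. The passing pairs all had an exact adjusted p of 0.0365, and the smallest p possible with 6 libraries is 0.03125 in either unit. How many pairs reach that p sets the adjusted p, so neither count of passing pairs judges any pair by itself. The members have 758 to 10946 exonic bases, so the count of pairs passing in CPM does not show their order of levels. Brd8 minus MrgBP was -0.01 log2 TPM without library 1 of the DMAP1RNAi63666 series. In CPM, Eaf6 minus Brd8 was -1.601 and MrgBP minus Tip60 -1.579, both reversed. With the mean of the lists in place of the median, the members minus the Domino list came to -1.124 rather than -1.448 log2 TPM. Without 1 library that value was -1.496 to -1.396. Of the fold changes of the members and DMAP1, none reversed under any alternative. Precision is limited by 3 libraries a series, and for Ing3 also by counts as low as 44.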
